A study of Arabidopsis thaliana with 4 samples.

Results

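Plates TC17 to TC30 hold the last stretch of TC codes on an Arabidopsis thaliana tiling array, and their features had the highest median score of the 9 stretches of plate codes compared in a histone H3 chromatin immunoprecipitation experiment. The members are the features whose code begins with TC followed by 17 to 30 and that carry a value on all 4 arrays. There are 1120 of them in 13 plates, out of 21732 measured features in 231 plates (5.15%), and code TC26 does not occur among them. A code gives the plate, the row letter and the well, so TC25B03 is row B, well 3 of plate TC25. The stretch was delimited by its codes, but it was picked out with its scores known. Its distance from the rest of the array is therefore given as a description of these samples, and the tests beside it are no independent support.

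The single group, labelled H3, consisted of untreated Col-0 seedlings 10 days old, grown in liquid MS medium. DNA precipitated with an antibody against H3 was compared with the input DNA of the same preparation on 2-colour arrays. There were 2 replicates, I and II in the labels and 1 and 2 here, each hybridised in both dye orientations, which gives 4 arrays. Within a replicate the 2 arrays carry the same value for each of the 21732 features, so n = 2 for every comparison, and the labels do not say whether the replicates came from separate cultures. Whole seedlings mix many cell types, so a score is an average over them.

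Histone H3 is a core histone around which, with the other core histones, DNA is wrapped in the nucleosome. An antibody against H3 itself recovers nucleosomal DNA largely irrespective of the modifications on the histone tails, and its ratio to input is commonly used as a map of nucleosome density and as the baseline for maps of modified H3. In Arabidopsis, nucleosomes are dense in the repeat-rich heterochromatin around centromeres and sparse at the promoters of active genes.

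The deposited value is 1 ratio score per feature and array. Neither the base of its logarithm nor the channel in its numerator is stated in the labels or the table, so "above" and "below" refer to the score and carry no direction for H3. Scores are given in units from the array median, that is, after subtraction of each replicate's median over all measured features (0.23 in replicate 1 and 0.13 in replicate 2). The gene table at hand (assembly TAIR10.1) lists none of the 1120 codes, so no gene, position or sequence is given for a member, and no gene list was tested. No genome sequence was used here.

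The members lay well above the array median in both replicates. In replicate 1 they ran from -1.44 to 1.001 with a median of 0.42, and the features outside the run had a median of -0.01. In replicate 2 they ran from -1.42 to 1.22 with a median of 0.58, against -0.02 outside the run. Both distributions overlap those of the other features, whose central 80% spanned -0.28 to 0.25 in replicate 1 and -0.51 to 0.44 in replicate 2. The central 80% of the members spanned -0.03 to 0.76 in replicate 1 and 0.01 to 0.86 in replicate 2. Of the members, 965 (86.2%) were above zero in both replicates, against 40.5% of all features, and 77 were below zero in both.

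In limma's moderated test across all features, with Benjamini-Hochberg adjustment at 5%, 837 members (74.7%) were above the array median and 33 (2.95%) were below it. The shares over all measured features were 17.0% above and 19.4% below. The remaining 250 members (22.3%) did not pass. All features shared 1 standard error of 0.11 units in this fit, and no feature closer to the median than 0.26 units passed. Among the called members, 1 had opposite signs in the replicates.

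**Figure D1:**
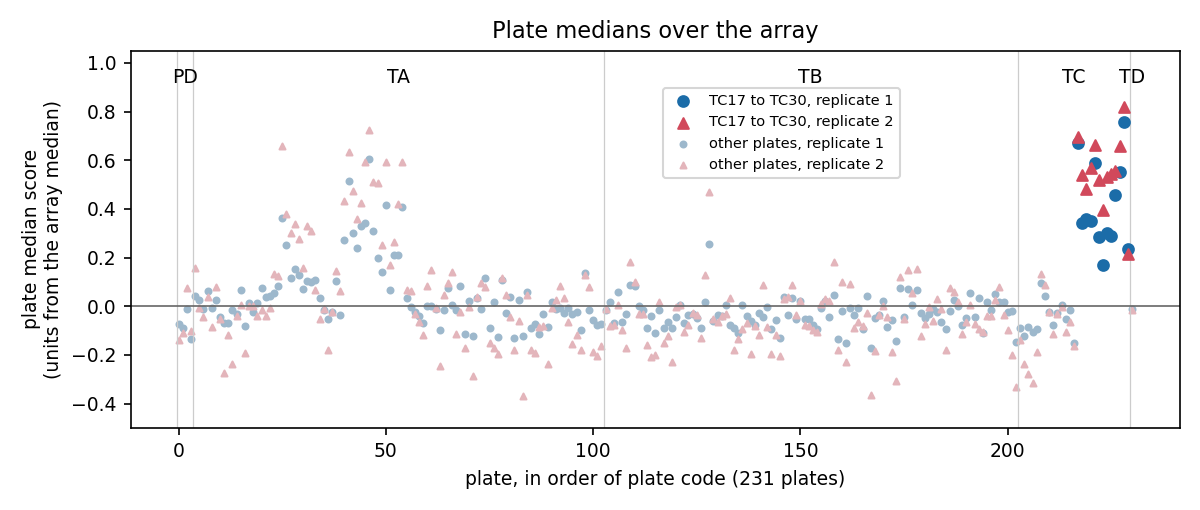
Median score of each of the 231 plates in units from the array median (vertical axis), in order of plate code, with replicate 1 as circles and replicate 2 as triangles. Plates TC17 to TC30 are drawn large and dark: their medians lie between 0.17 and 0.82, all above zero in both replicates.

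The run was higher than each of the other stretches of plates it was set against, by less where those were themselves high. Set against all 20612 other features, its median was higher by 0.43 units in replicate 1 and 0.60 in replicate 2 (mean 0.52 ± 0.12, SD, n = 2; limma adjusted p = 0.025). The other 2 stretches of high plates were nearest. The median of the members exceeded that of TA35 to TA51 (1544 features) by 0.17 in both replicates (SD 0.003, n = 2; limma adjusted p = 0.025). It exceeded that of TA22 to TA28 (623 features) by 0.28 and 0.27 (SD 0.003, n = 2; limma adjusted p = 0.025). Between these 3 stretches the differences were thus nearly equal in the replicates, while those from the other 6 stretches ranged in mean from 0.49 to 0.56 and were larger in replicate 2 each time. All 9 differences were positive in both replicates and passed limma with the same adjusted p (9 of 9, 100%). They share the values of the run, so they are not 9 independent results. At a threshold of 1% none of the 9 passed (limma, all 9 with an unadjusted p under 0.05).

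The members differed from the rest of the array most clearly in the upper levels. A mean score of at least 0.5 units was reached by 553 members (49.4%), against 6.65% of all features. They made up 38.3% of the 1445 features of the array at that level. At 0.75 units and above stood 190 members, which is 45.9% of the 414 such features. The stretch TA35 to TA51 had 9.20% of its features at 0.75 and above and TA22 to TA28 had 5.14%, against 17.0% in the run. At 1 unit and above stood 4 of the 1120 members and 15 of the 20612 other features, a larger share than over all other features together. Of these 15 features, 10 were among the 2002 of TA01 to TA21, a larger share than in the run. The upper tail of the run thus lay mostly between 0.5 and 1 unit, and features beyond 1 unit were few both in the run and outside it.

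**Figure D2:**
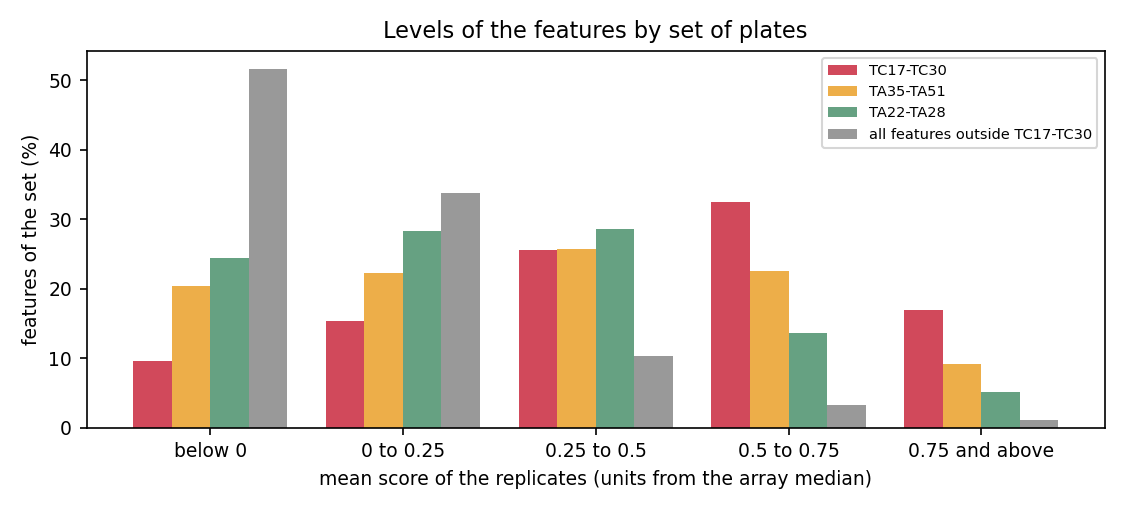
Share of features (vertical axis, %) in 5 classes of the mean score of the replicates (horizontal axis, units from the array median), for TC17 to TC30, TA35 to TA51, TA22 to TA28 and all features outside TC17 to TC30. The run has 32.4% of its features from 0.5 to 0.75 units and 9.64% below 0, against 3.24% and 51.6% of the features outside it.

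The 13 plates were not of one level. TC29 was the highest, at 0.76 in replicate 1 and 0.82 in replicate 2, followed by TC17 with 0.67 and 0.70. TC21 had medians of 0.59 and 0.66, TC28 of 0.55 and 0.66, and TC27 of 0.46 and 0.56. These are the 5 plates of the run whose medians passed limma's test across all 231 plates (adjusted p from 0.014 to 0.027), in which 3.03% of all plates passed above the array median. By the mean of the replicates, TC29, TC17, TC21, TC28 and TC27 ranked 1, 2, 4, 5 and 8 among the 231 plates.

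The other 8 plates had medians of 0.17 to 0.36 in replicate 1 and 0.21 to 0.57 in replicate 2. Their adjusted p in the limma fit across plates was 0.054 to 0.13. TC18, TC19 and TC20 were alike, at 0.34, 0.36 and 0.35 in replicate 1 and 0.54, 0.48 and 0.57 in replicate 2. TC22, TC24 and TC25 were alike too, at 0.28, 0.30 and 0.29 in replicate 1 and 0.52, 0.53 and 0.54 in replicate 2. TC23, at 0.17 and 0.39, and TC30, at 0.24 and 0.21, were the lowest. In each replicate all 13 plates exceeded the array median by 0.1 units or more, which holds for 16.0% of all plates. After scaling of the replicates to the same spread, all 13 passed the limma test.

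**Figure D3:**
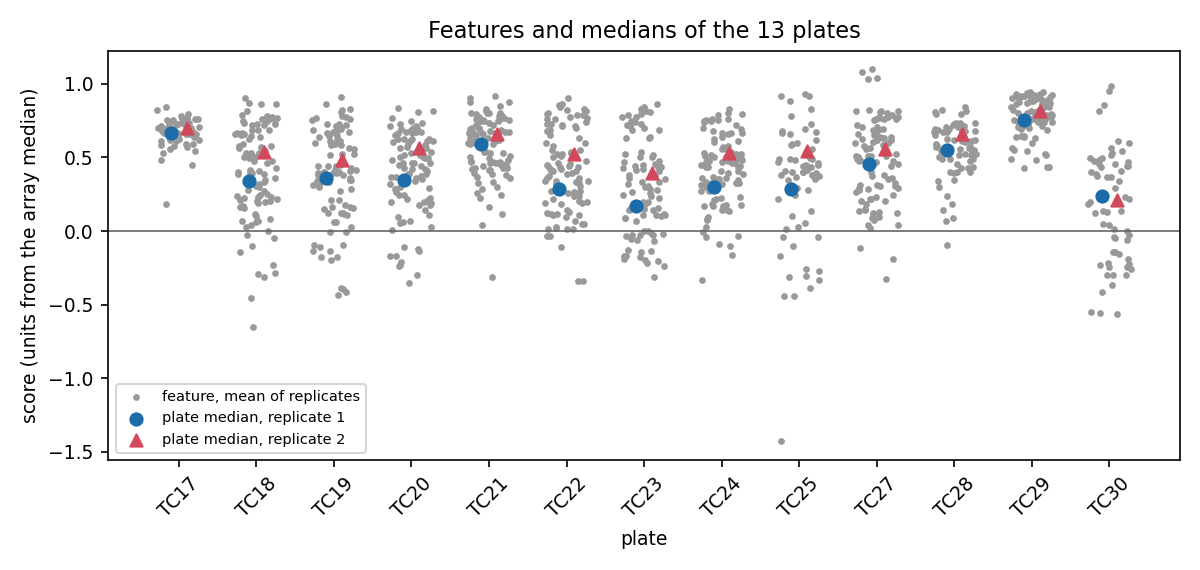
Scores in units from the array median (vertical axis) for each of the 13 plates: grey points are features (mean of the replicates), circles and triangles are the plate medians of replicates 1 and 2. TC17 and TC29 are compact, with every feature above zero, whereas most other plates spread from below zero to above 0.8 units.

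Each plate's median was also set against the median of the other members, a difference in which the centring cancels. TC29 was higher by 0.32 ± 0.08 units (SD, n = 2; limma adjusted p = 2.1e-04). TC17 was higher by 0.20 ± 0.10 (adjusted p = 0.0033) and TC21 by 0.14 ± 0.07 (adjusted p = 0.035). TC30 was lower, at -0.29 ± 0.14 (adjusted p = 2.2e-04), and so was TC23, at -0.24 ± 0.05 (adjusted p = 9.8e-04). These 5 of 13 plates (23.1% higher and 15.4% lower) passed, and the other 8 did not. Every plate except TC27 kept the same sign in both replicates, so sign does not set the 5 apart. The standard error was pooled over the plates in this limma fit. After scaling to the same spread, TC23, TC29 and TC30 passed and TC17 and TC21 did not, and with a trended, robust eBayes prior none passed (limma adjusted p from 0.059). After quantile normalization 9 plates passed, TC22, TC24, TC25 and TC28 in addition to the 5.

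The level changed in steps between successive plates. Of the 11 pairs of plates with consecutive codes in the run, 3 rose and 3 fell from the earlier to the later plate in limma's test across all 224 such pairs of the array, in which 15.2% rose and 12.1% fell. The largest step was at TC30, whose median lay 0.52 units under that of TC29 in replicate 1 and 0.60 under it in replicate 2 (limma adjusted p = 1.8e-20). TC18 was lower than TC17 (-0.24 ± 0.12, SD, n = 2) and TC22 lower than TC21 (-0.22 ± 0.12). TC21 was higher than TC20 (0.17 ± 0.10), TC24 than TC23 (0.13 ± 0.004) and TC29 than TC28 (0.18 ± 0.03). After scaling to the same spread, and likewise with a trended, robust prior, the step to TC30 was the only one of the 11 that passed limma.

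The spread between the wells of a plate was as uneven as the level. TC17 and TC29 had the smallest and second smallest SD between wells of all 231 plates, 0.10 and 0.13 units in the mean of the replicates. TC28 had an SD of 0.19 and TC21 of 0.21. At the other end, TC25 (0.42), TC30 (0.38) and TC18 (0.33) were among the plates with the widest spread, ranked 229, 227 and 211 from the lowest. The median over the plates outside the run was 0.24 units. The most uniform plates of the run were thus its highest ones. In TC29 all 96 features were called above, from 0.43 to 0.95 units. In TC17 it was 59 of 60, the exception being TC17F11 at 0.18 units, a feature singled out after its value was seen.

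**Figure D4:**
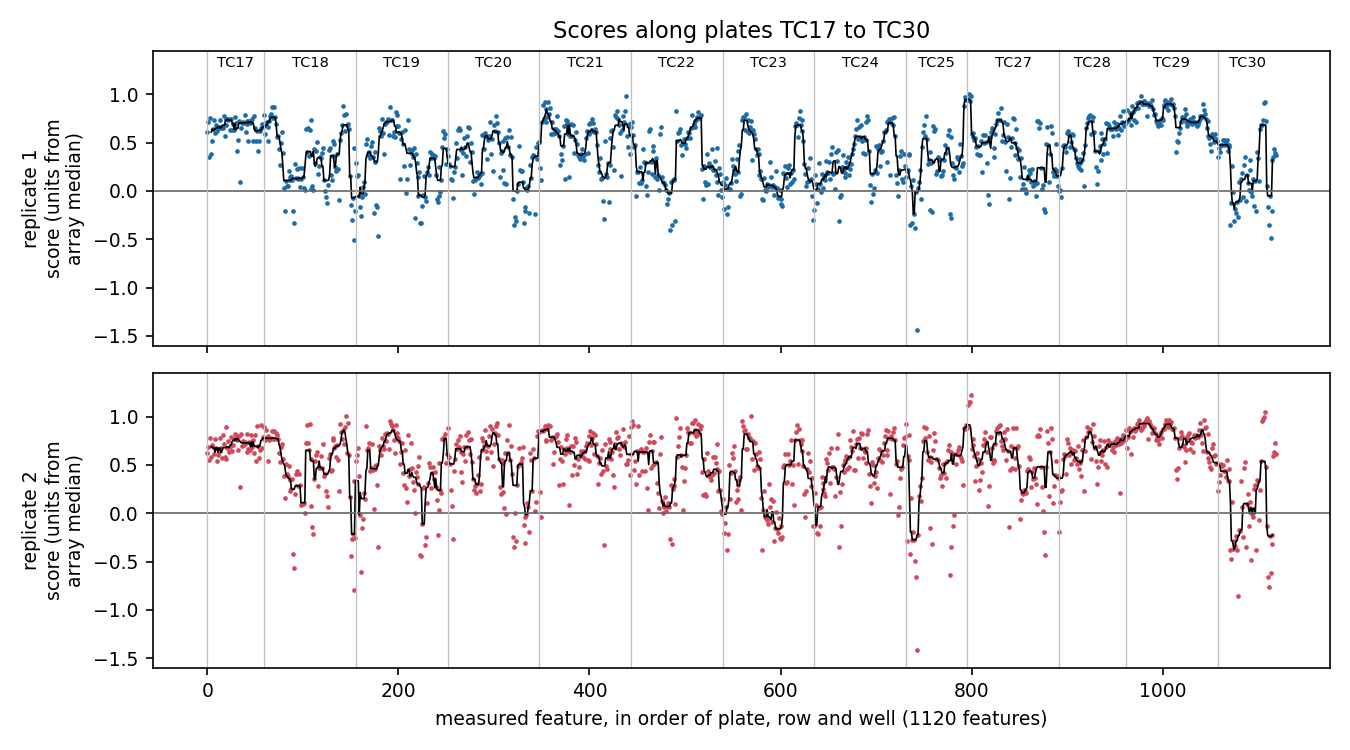
Score of each of the 1120 members in units from the array median (vertical axis), in order of plate, row and well, for replicate 1 (upper panel) and replicate 2 (lower panel); points are features, black lines are running medians of 9 features and vertical lines mark plates. Both replicates show plateaus at TC17 and TC28 to TC29, and troughs that reach zero in several plates between them and in TC30.

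Along the codes, the members called above formed long unbroken stretches and those called below did not. With 837 of 1120 members called above and 33 below, such a contrast follows at least in part from the shares. The lengths were not compared with those in the rest of the array. Here a stretch is a series of successive measured features with the same call, counted on across plates with consecutive codes. The longest ran over 139 features, from TC28D05 through all of TC29 to TC30B01, where the medians of replicates 1 and 2 were 0.71 and 0.77 units. TC28 lists no wells after TC28F10, so this stretch passes over unlisted wells before TC29. The next ran over 45 features, from TC17F12 to TC18B08, with medians of 0.68 and 0.75. It followed a stretch of 34 features, TC17D01 to TC17F10, from which only TC17F11 separates it. Of the 837 members called above, 527 (63.0%) lay in 17 stretches of 12 features or more.

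The 33 members called below formed 26 stretches, 20 of them single features, and the longest had 3, TC25B01 to TC25B03. They were distributed over 10 of the 13 plates, with 8 each in TC25 and TC30, 5 in TC18 and 4 in TC19, and none in TC17, TC28 or TC29. This count depended on the processing: it was 5 without centring, 1 with a trended, robust prior and 51 after quantile normalization (limma, each at 5%). Members near the array median were more numerous than members below it, with 250 that did not pass against 33 called below. The longest stretch of members that passed in neither direction had 23 features, TC23D05 to TC23F03, with medians of 0.03 in replicate 1 and -0.07 in replicate 2. Of the 94 plate rows with 8 or more measured members, 89 had medians above zero in both replicates and 1, row B of TC30, below zero in both (-0.12 and -0.31).

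The highest members were neighbours in the codes. The 4 members above 1 unit were the first 4 wells of TC27, TC27A01 to TC27A04. TC27A04 had scores of 0.98 and 1.22 in replicates 1 and 2 (1.10 ± 0.17, SD, n = 2; limma adjusted p = 3.0e-20), and TC27A02 had 1.001 and 1.15 (1.08 ± 0.11; adjusted p = 1.9e-19). The last 6 measured wells of TC25, before the absent code TC26, had medians of 0.91 and 0.88. The level was thus high on both sides of that gap.

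The lowest member was TC25B03, with -1.44 and -1.42 (-1.43 ± 0.01, SD, n = 2; limma adjusted p = 1.2e-34). It lies far below the next, TC18H10, which had -0.51 and -0.80 (-0.65 ± 0.20; adjusted p = 8.8e-08). The members with the widest gap between replicates were TC21G01, at -0.12 in replicate 1 and 0.77 in replicate 2, and TC24H12, at 0.14 and 0.93. Both were called above, since a feature's own spread plays no part in the call, and TC21G01 is the called member with opposite signs.

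Plate TC25 had a pattern of its own between odd and even wells. It lists 77 codes, up to TC25G05, of which 13 carry no value, and these are the only empty wells of the run. All 13 are even wells of rows A, C, E and G. Of the 20 even wells listed in these rows, 7 were measured, and all 7 were below zero in both replicates, from -0.35 to -0.19 in replicate 1 and from -0.64 to -0.15 in replicate 2. The 21 odd wells of the same rows had medians of 0.39 in replicate 1 and 0.62 in replicate 2, and 18 of them were called above and none below. In rows B, D and F together the odd wells had medians of 0.27 and 0.48 and the even wells 0.29 and 0.52, with every well measured. Taken alone, row B had a median of odd wells minus that of even wells of -0.32 in replicate 1 and -0.17 in replicate 2. In rows D and F this difference lay between -0.03 and 0.06.

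The median of the odd wells minus that of the even wells was 0.92 units in row E of TC25, 0.74 in row C and 0.56 in row A, in the mean of the replicates. The even wells behind these medians were few, 2 in row E, 2 in row C and 3 in row A. Among the 1820 plate rows of the array with at least 2 measured wells of each kind, these 3 rows had the largest differences of either sign. The largest in any other plate was 0.54 units, and the median size over the other plates was 0.07. The rows were singled out after their values were seen, so this is a description with no test. Of the 8 members of TC25 called below, 5 are among these even wells. Without the 7 even wells the counts of plates that passed stayed at 5 above the array median and 5 different from the rest of the run.

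**Figure D5:**
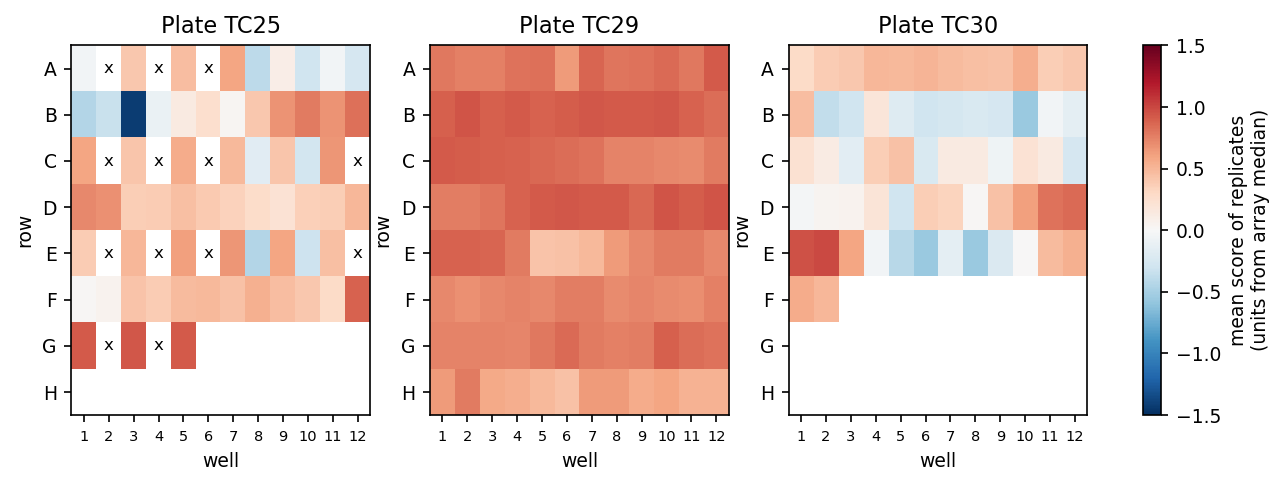
Mean score of the replicates (colour, units from the array median, red above and blue below) by row and well in plates TC25, TC29 and TC30; a cross marks a listed well with no value, and white without a cross marks wells that are not listed. In TC25 the measured even wells of rows A, C and E are blue and most odd wells of these rows are red, TC29 is red throughout, and TC30 is red in row A, blue in most of row B and mixed below.

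Plate TC30, the last of the run, fell off within the plate. Its row A continued the plateau of TC29 at a lower level, and its 12 wells were all called above. From TC30B02 on, the score changed side repeatedly: row B had medians below zero in both replicates, TC30D09 to TC30E03 were again high and all called above, and TC30E05 and TC30E06 were called below. TC30 lists 62 codes and ends at TC30F02. Its last 12 wells had medians of 0.18 in replicate 1 and -0.18 in replicate 2, with 5 called above and 3 below. It was the only plate of the run in which replicate 2 lay lower than replicate 1 in the median difference between replicates (-0.09 units, against 0.03 to 0.19 in the other 12 plates).

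The run was already high at its first wells, after a gap in the codes across which the level was not measured. The first 12 members, TC17D01 to TC17D12, had medians of 0.63 and 0.65 in replicates 1 and 2, and all were called above. The last 12 measured features before the gap in the codes, TC13B11 to TC13C10, had medians of -0.14 and -0.12, with 1 called above and 4 below. TC17 lists no wells in rows A to C and TC13 none after C10. Inside the run, scores carried over the border between some consecutive plates. The last 6 wells listed in TC28, which ends at TC28F10, had medians of 0.70 and 0.76 and the first 6 of TC29 of 0.74 and 0.82. The last 6 wells of TC17 had medians of 0.65 and 0.73, and the first 6 of TC18 of 0.67 and 0.77, although TC18 as a whole was lower than TC17. At other borders they differed: the last 6 wells of TC18 had medians of -0.18 and -0.26, and the first 6 of TC19 of 0.05 and 0.47.

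The replicates were closer in scale in the run than elsewhere. The SD over features was 0.31 in replicate 1 and 0.35 in replicate 2 among the members, a ratio of 1.11, while outside the run it was 0.23 and 0.37, a ratio of 1.59. In TA35 to TA51 the ratio was 1.33 and in TA22 to TA28 it was 1.43, and in the other 6 stretches it lay between 1.60 and 1.85. Above 0.5 units the replicates also differed less in the run than over all other features together at matched level. For means of 0.5 to 0.75 units the median of replicate 2 minus replicate 1 was 0.11 among 363 members and 0.20 among 668 other features. For means of 0.75 and above it was 0.09 and 0.13, and for means of 0.25 to 0.5 units it was 0.21 in both. In TA35 to TA51 it was 0.15 from 0.5 to 0.75 units and 0.14 above, and in TA22 to TA28 it was 0.20 and 0.13. At 0.75 and above, TA01 to TA21 (0.085, 25 features) and TA52 to TA99 (0.094, 18 features) were close to the run (0.087), so the small difference there is not particular to it. With 2 replicates these ratios cannot be tested. The replicates correlated with r = 0.85 across the 1120 members and r = 0.82 across the 20612 other features, which share arrays and, for neighbouring wells, much of their signal. In TA35 to TA51 r was 0.89 and in TA22 to TA28 it was 0.85, so a correlation of this size is not particular to the run.

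Successive wells of the run were alike. After removal of plate medians, the mean score of a well correlated with that of the next well with r = 0.63 over 1094 pairs, with r = 0.52 at 2 wells apart, 0.29 at 4 and 0.05 at 8. Outside the run the values were 0.58, 0.33, 0.15 and 0.06, so the coefficients at 2 and 4 wells apart were higher in the run. In TA35 to TA51 they were 0.70, 0.53, 0.29 and 0.13, and in TA22 to TA28 they were 0.76, 0.57, 0.39 and 0.18. The higher coefficients are thus not particular to the run. Within the run the correlation was as high without TC25 (0.66 at 1 well apart). The difference between replicates was itself correlated between successive wells (r = 0.36 in the run and 0.50 outside it). Neighbouring members are thus not independent, and their number is no measure of independent evidence. How far this correlation reflects shared error or the wider scale of replicate 2 was not tested. By column, the medians of the mean score over the run were 0.59 in well 1, 0.56 in well 12 and 0.45 to 0.54 in wells 2 to 11, against -0.03 to -0.001 over the 12 wells outside the run.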

How the data were processed

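Precipitated and input DNA of H3 replicates 1 and 2 was amplified and coupled directly to Cy5 or Cy3, per the labels' protocols. The authors deposited 1 ratio score per feature and array. Neither the labels nor the table state its normalization, log base, centring or numerator, and scanner intensities were not used. Of 21800 listed features 21732 had a value, and none of these codes matched the gene table.

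Arrays of a dye swap were averaged (their values are identical), and each replicate was centred on its median. Features, plate medians, differences between stretches, plates against the rest of the run, and steps between successive plates were each set against zero by limma 3.58.1 (lmFit, then eBayes; R 4.3.3), and Benjamini-Hochberg adjusted p-values were called at 5%. The prior degrees of freedom were infinite for features, plates within the run and steps, 2.21 for plates and 0.91 for stretches. The p-values of the first 3 fits thus rest on pooled variances. Those of the stretches rest on each difference's own spread and, with about equal weight, on the prior. For the differences from TA35 to TA51 and TA22 to TA28 (SD 0.003 each), the moderated standard error of 0.026 came mostly from the prior. The fits of features and of plates were tested on simulated data with independent errors of a common SD. Those data had neither the correlation between neighbouring wells nor the unequal spread of the replicates, so the p-values were not checked for these. Descriptions and plots used Python 3.11.15 with numpy 2.4.6, pandas 2.3.3 and matplotlib 3.10.9. The number of arrays limits the precision, and depth does not apply.

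The members, stretches and comparisons were chosen with earlier results of these data known. Named features are the 2 highest, the 2 lowest and the 2 farthest apart between replicates in the run, and the ends of described stretches; other exceptions are stated. Alternatives covered centring, scaling, quantile normalization, the variance model, the threshold, the plate summary, small plates and each replicate left out.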

Additional observations from a re-analysis of the deposited data

How the results depend on the processing

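No paired analysis was possible because there is 1 group. Every alternative kept the run above the other features, by 0.43 units without replicate 2 to 0.60 without replicate 1, against 0.52. In the main fit the limma adjusted p of this difference was 0.025 and thus missed a threshold of 1%, at which 0 of the 9 differences between stretches passed. This limma adjusted p moved widely: 1.6e-04 after scaling, 1.9e-08 after quantile normalization and 0.0067 with trend and robust variance. It was 4.7e-05 with means over features and 0.011 among plates with 80 or more features. In that last setting 8 of the 9 differences between stretches passed limma at 5%. The 837 members above became 553 and the 33 below 5 with a minimum size of 0.5 units, and without either replicate (counted by size, with no test) they were 727 to 890 and 28 to 47. The 33 below were 5 without centring, 51 after quantile normalization, 19 at 1% and 1 with trend and robust variance (30 with trend alone and 33 with robust alone, both chosen after the data were seen). The 5 plates above were 13 without centring, with centring on the mode, after scaling, after quantile normalization and with plate means; 12 with centring on the features outside the run and with trend and robust variance; 3 among plates with 80 or more features; 0 at 1%; and 13 by size in either replicate alone. The 5 plates that differed from the rest of the run were 3 after scaling, 9 after quantile normalization and 0 with trend and robust variance. They were 7 with plate means, 4 at 1%, 3 among larger plates, and 5 to 9 by size with a replicate left out. The 6 steps were 1 after scaling, 1 with trend and robust variance and 3 among larger plates, where fewer pairs remain. They were 7 after quantile normalization, 5 with plate means, 5 at 1%, and 7 by size with either replicate left out. The causes were not tested, except that a minimum size and fewer plates lower a count by construction. Whether any score is related to how the plates were prepared, or to the empty wells, was not tested. Without positions, likeness along the codes cannot be related to the genome.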
